A study of Mus musculus with 6 samples.

Results

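The genes described are the histone genes of the mouse olfactory mucosa: all rows of the deposited expression table whose symbol begins with Hist1h to Hist4h, H2af, H3f3 or H1f. The rule gave 84 of 24315 rows. Of these, 67 are replication-dependent histone genes, 16 are variant histone genes, and Hist2h2be is taken by itself, all classed by symbol alone. The tissue was the whole olfactory mucosa, which lines the nose and holds the odor-sensing neurons along with glands and connective tissue. It was taken at postnatal day 11 from 3 C57BL/6 mice of wild type genotype with 1 nostril closed. Each mouse gave a closed and an open side, so there were 3 closed and 3 open libraries, numbered by mouse. No unoperated mice were sampled. The sources used here do not say when the nostril was closed or for how long, whether the libraries mark strand, or whether poly(A) RNA was selected. The comparison asks which transcripts differ with closure of the nostril.

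Nucleosomes wrap DNA around the core histones H2A, H2B, H3 and H4, and H1 binds the linker DNA between them. Replication-dependent histone genes lie in clusters and are transcribed mainly in S phase. Their transcripts typically end in a stem-loop that is bound by the protein SLBP, in place of a poly(A) tail. Variant histone genes are transcribed through the cell cycle, give polyadenylated transcripts and supply nucleosomes in cells that no longer divide. Hist2h2be encodes an H2B protein of mouse olfactory sensory neurons that has been reported to be more abundant in neurons with little activity. These neurons no longer divide, while basal cells of the mucosa keep dividing and replace them.

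The 3' ends of the annotated transcripts are shown first, because they differ between these classes. The stem-loop pattern searched was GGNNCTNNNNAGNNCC, on the transcript strand, with the first 6 bases pairing with the last 6 around a loop of 4. It was found in the GENCODE M21 transcripts (GRCm38) of 46 of the 68 Hist rows, 1 of the 16 variant rows (H2afx) and 204 of 21951 protein-coding genes (0.929%). The Hist rows with the highest levels in which it was found carried the following stem-loops, with the pattern in capitals.

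Hist3h2ba: ccaaaGGCTCTTTTCAGAGCCaccttccaa
Hist3h2a: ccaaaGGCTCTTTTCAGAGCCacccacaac
Hist1h1c: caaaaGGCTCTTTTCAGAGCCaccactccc
Hist2h4: ctaacGGCCCTTTTTAGGGCCaaccacagt
Hist1h4i: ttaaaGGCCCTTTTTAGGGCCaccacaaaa

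One core, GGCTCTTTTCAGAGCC, was shared by 26 genes of the H1, H2A, H2B and H3 families, and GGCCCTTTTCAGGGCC was found in 7 genes, all of the H4 family. Hist2h2be, at chr3:96221119-96223738 (GRCm38, plus strand), has 1 annotated transcript of 2620 bases with no match to the pattern. Its end holds the polyadenylation signal AATAAA, 22 bases before the last base. Signals near the end, AATAAA or ATTAAA in the last 40 bases, are in capitals for the following genes.

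Hist2h2be: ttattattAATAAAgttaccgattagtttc
Hist3h2ba: attAATAAAtttggttcaattttggccaca
Hist1h1c: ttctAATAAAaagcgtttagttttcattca
Hist1h4i: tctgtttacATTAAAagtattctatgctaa

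Such a signal was found in 5 of the 6 Hist rows averaging 10 FPKM or more (Hist2h2be among them), in 3 of the 10 rows of 1 to 10 FPKM and in 9 of the 52 rows under 1 FPKM. FPKM are fragments scaled to the length of the transcript and to how many fragments the library mapped. Of the variant rows of at least 1 FPKM, 9 of 10 had a signal, against 79.0% of all protein-coding genes. In 4 of the 6 highest Hist rows the transcript carried both the stem-loop and a signal after it. The median length of the longest transcript was 1595 bases in Hist rows of at least 10 FPKM, 672.5 bases in those of 1 to 10 FPKM and 516 bases below. A model that stops short of the 3' end can show neither a stem-loop nor a signal. Hist1h4k, with 312 bases, and Hist2h2bb, with 381 bases, had neither. Whether such models were cut short was not tested. The annotation is not the one the authors used and may itself draw on evidence of expression, so these shares describe the annotation only.

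Variant genes held most of the highest levels. H3f3b and H3f3a, which encode the same replacement histone H3.3, stood highest, at 546.4 to 598.8 and 427.3 to 631.3 FPKM over the 6 libraries. H2afz, which encodes the variant H2A.Z found at promoters, followed at 308.6 to 457.1 FPKM. Hist2h2be was the fourth highest histone row and stood at rank 265 of the 24315 rows. The ranges of H3f3b and H3f3a overlapped, as did those of H3f3a and H2afz and of H2afz and Hist2h2be. Hist2h2be did not overlap with the next gene, H1f0, a linker histone that accumulates in cells that have left the cycle (166.5 to 204.0 FPKM).

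Of the 84 rows, 8 were listed at 0 in all 6 libraries. These were Hist1h2ao, Hist1h2ap, Hist1h4n, Hist2h3c1 and Hist2h3c2 among the replication-dependent genes and H1fnt, H2afb1 and H2afb2 among the variants. A further 47 replication-dependent rows and 3 variant rows had values with a mean under 1 FPKM and were not tested. The test covered 26 rows, namely 15 replication-dependent genes, 10 variants and Hist2h2be. The median level over all 67 replication-dependent rows was 0.200 FPKM, against 47.7 FPKM over all 16 variant rows.

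**Figure D1:**
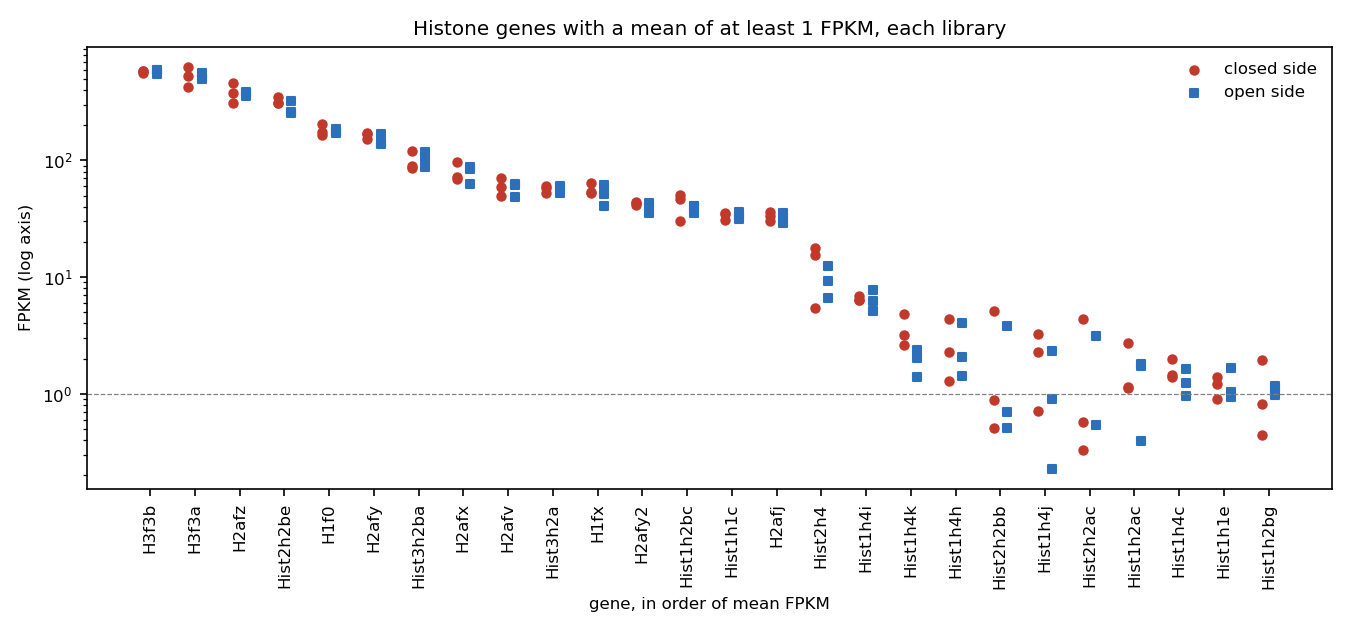
FPKM of the 26 tested histone rows in each library (vertical log axis), with closed libraries as circles left of open libraries as squares; the dashed line marks 1 FPKM. The zero of Hist2h2ac on the open side of mouse 2 cannot be drawn on a log axis. The sides overlap for every gene but Hist1h4k, and replication-dependent genes fill the right of the plot.

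Hist2h2be stood at 346.7, 309.1 and 313.3 FPKM in closed libraries 1, 2 and 3, against 323.0, 255.5 and 260.7 FPKM in open libraries 1, 2 and 3. The closed value was the higher one in 3 of 3 mice, by 1.07, 1.21 and 1.20 times, but the sides overlapped, because the open side of mouse 1 lay above the closed sides of mice 2 and 3. The means were 323.0 ± 20.6 FPKM closed and 279.7 ± 37.6 FPKM open (SD, n = 3 each). The log2 change, closed minus open on log2(FPKM + 1), was 0.21 with a standard error (SE) of 0.15 and a 95% interval of -0.13 to 0.55. It did not pass the limma test over all rows (adjusted p = 0.999991), nor with the mouse as a block (adjusted p = 0.99999). The interval leaves room for no difference and for a difference larger than the one measured. Besides Hist2h2be, Hist1h4k and Hist2h2ac were higher on the closed side in each of the 3 mice, so 3 of the 26 tested histone rows were, against 7.41% of the 14788 rows tested. None of the 26 was lower in each mouse, against 9.18% of all rows tested.

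The level of the gene was also set against olfactory marker protein, Omp, which marks mature olfactory sensory neurons, because in bulk tissue fewer cells of a type and less RNA per cell cannot be told apart. Omp stood at 1916, 2126 and 2176 FPKM in closed libraries 1, 2 and 3 and at 2212, 1414 and 1652 FPKM in open libraries 1, 2 and 3. It was higher on the closed side in mice 2 and 3 and lower in mouse 1. The ratio of Hist2h2be to Omp was 0.181, 0.145 and 0.144 on the closed side and 0.146, 0.181 and 0.158 on the open side. The closed ratio was the higher one in 1 of 3 mice, and its log2 difference of -0.05 lay within the spread. A two-sided exact permutation test over all libraries, without regard to mouse, gave p = 0.6. With the differences within mice permuted instead, the exact permutation test gave p = 0.75. Over all libraries, 3 against 3 allow no p below 0.1 in the first test. The test within mice has only 3 differences to permute, so its smallest possible p is higher still. Neither test could have reached 0.05. With the summed FPKM of 20 mature neuron markers as the denominator the log2 difference was -0.0084 (exact permutation p = 1).

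**Figure D2:**
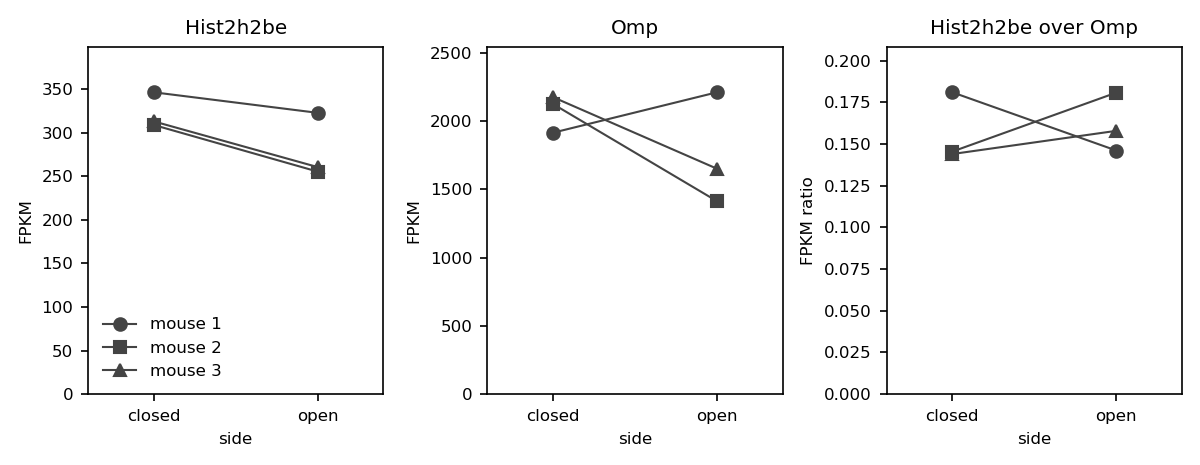
FPKM of Hist2h2be, FPKM of Omp and their ratio on the closed (left) and open (right) side, with lines joining the sides of each mouse. Hist2h2be is higher on the closed side in each mouse, Omp in mice 2 and 3, and the ratio in mouse 1 alone.

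Of the mature neuron markers themselves, 16 of 20 had a log2 change above 0 and the median was 0.24, beside a median of -0.0095 and 46.0% above 0 over all rows tested. Their summed FPKM ranged from 7681 to 9030 on the closed side and from 5941 to 8524 on the open side. None of the 20 passed the test, and with the mouse as a block only Kcnmb3, a potassium channel subunit, did (log2 change -1.48, limma adjusted p = 0.0354). At an unadjusted p under 0.05 in limma there were 5 of the 20, against 1.45% of all rows tested. The log2 changes of these 5 were -1.48, -0.80, 0.47, 0.48 and 0.53, so they went in both directions. What the markers contribute to the Hist2h2be difference beyond the ratios above was not tested. Whether RNA of Omp or of the markers per neuron differed with closure was not tested either, so the ratios are not values per neuron.

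Among the H2B genes Hist2h2be made up most of the transcript level. Its share of the summed H2B FPKM was 66.3%, 69.0% and 70.9% in closed libraries 1, 2 and 3 and 66.3%, 63.2% and 66.5% in the open libraries, with means of 68.7% ± 2.35 closed and 65.3% ± 1.85 open (SD, n = 3 each). The sides overlapped. The next H2B gene, Hist3h2ba, a replication-dependent gene outside the large clusters, stood at 121.5, 85.7 and 89.0 FPKM closed and 118.0, 104.5 and 87.9 FPKM open, a log2 change of -0.07 (SE 0.17). Hist2h2be over Hist3h2ba was 2.85, 3.61 and 3.52 on the closed side and 2.74, 2.45 and 2.97 on the open side, with the closed value higher in each mouse. This ratio was formed after its values were known and was not tested.

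The 10 tested variants had log2 changes of -0.0025 to 0.15. H3f3b stood at 588.2, 580.4 and 563.8 FPKM closed and at 598.8, 546.4 and 591.3 FPKM open. H3f3a stood at 631.3, 529.6 and 427.3 FPKM closed and at 503.8, 565.6 and 502.8 FPKM open. The sides of both genes overlapped widely, and their log2 changes were -0.0025 (SE 0.15) and -0.0014 (SE 0.18). Both signs turned with another scaling of the libraries, to 0.02 with median scaling and to 0.07 for H3f3b and 0.06 for H3f3a with quantile normalization.

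Among the H2A variants, H2afz stood at 375.8, 457.1 and 308.6 FPKM closed and 383.3, 378.4 and 353.3 FPKM open (log2 change 0.02, SE 0.17). H2afv, which encodes the second form of H2A.Z, stood at 59.6 ± 10.7 FPKM closed and 57.3 ± 7.83 FPKM open. H2afx, whose protein is phosphorylated at DNA breaks, stood at 79.6 ± 14.7 FPKM closed and 78.1 ± 13.3 FPKM open (SD, n = 3 each). The macroH2A genes, whose proteins carry a large extra domain linked to repressed chromatin, come next. H2afy stood at 152.2, 171.9 and 169.3 FPKM closed and at 169.5, 140.4 and 139.6 FPKM open (log2 change 0.14, SE 0.13), and H2afy2 at 42.8 ± 1.04 FPKM closed and 39.8 ± 3.97 FPKM open (log2 change 0.11, SE 0.11). H2afj stood at 33.1 ± 2.88 FPKM closed and 32.3 ± 2.95 FPKM open. All of these genes overlapped between sides.

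The sides of the replacement linker histones overlapped as well. H1f0 stood at 166.5, 204.0 and 174.3 FPKM closed and at 185.3, 175.2 and 172.2 FPKM open (log2 change 0.03, SE 0.13). H1fx stood at 56.6 ± 6.09 FPKM closed and 51.5 ± 10.6 FPKM open (log2 change 0.15, SE 0.16), the largest change among the 10 tested variants. None of those 10 passed the test. Their median was 0.03, with 8 of 10 above 0 against 46.0% of all rows tested, and 10 of 10 with quantile normalization or median scaling. It was -0.02 without the closed library of mouse 2 and -0.01 without the open library of mouse 3, so its sign rests on single libraries.

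The variants with values below the floor were close to 0 or to the floor. H2afb3, a short H2A of the testis, had a mean of 0.985 FPKM closed and 0.834 FPKM open. H1foo, the linker histone of oocytes, was listed at 0 in 3 libraries and reached 0.162 FPKM in the closed library of mouse 3. H2afy3 did not exceed 0.111 FPKM.

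**Figure D3:**
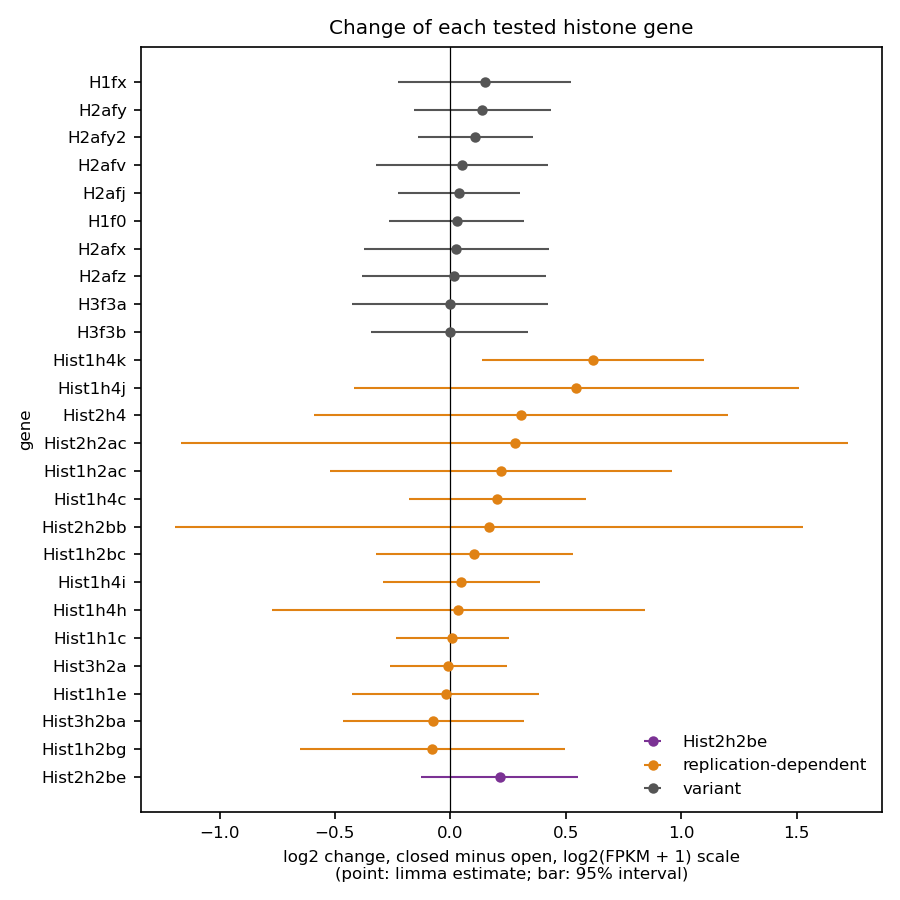
Log2 change (closed minus open, log2(FPKM + 1) scale) of the 26 tested histone rows, with points for the limma estimate and bars for its 95% interval. All intervals but that of Hist1h4k include 0. The widest intervals, those of Hist2h2ac and Hist2h2bb, belong to replication-dependent genes of low level. Others of low level, such as Hist1h1e, have intervals narrower than that of H3f3a.

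Of the replication-dependent genes, only the 15 of at least 1 FPKM were tested. None of the 26 histone rows tested passed at an adjusted p under 0.05 (limma, lowest adjusted p = 0.999991), and none did with the mouse as a block. Over all rows, 0.0473% passed, and 0.0338% with the block. At an unadjusted p under 0.05 there was 1 histone row, against 1.45% of all rows tested, and with the block 1, against 2.37%. That row, Hist1h4k, was also the only one of the 26 whose sides did not overlap, against 3.37% of all rows.

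Hist1h4k, an H4 gene of the large cluster on chromosome 13, stood at 4.80, 2.63 and 3.19 FPKM closed and at 2.03, 1.39 and 2.37 FPKM open. Its closed value was the higher one in each mouse, by 2.37, 1.89 and 1.35 times. The log2 change was 0.62 (SE 0.21, 95% interval 0.14 to 1.10), with an unadjusted p of 0.0179 and an adjusted p of 0.999991 in limma. H4 genes encode the same protein, and reads can be split between copies where their sequences match. Whether this happened was not tested, so the values of single H4 rows are uncertain. In the other 5 tested H4 rows the sides overlapped, with log2 changes of 0.03 to 0.55. Hist2h4 stood at 17.7, 5.43 and 15.4 FPKM closed and 9.25, 6.61 and 12.4 FPKM open, and Hist1h4i at 6.89, 6.39 and 6.37 FPKM closed and 7.77, 6.23 and 5.13 FPKM open. Their log2 changes were 0.31 (SE 0.39) and 0.05 (SE 0.15). That of Hist2h4 rested on single libraries: it was 0.017 without closed library 1, 0.79 without closed library 2, 0.11 without closed library 3, 0.097 without open library 2 and 0.51 without open library 3. Hist1h4j, with the change of 0.55 (SE 0.42), stood at 3.25, 0.711 and 2.30 FPKM closed and 2.32, 0.893 and 0.228 FPKM open.

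Among the replication-dependent H2A and H2B genes, Hist3h2a stood at 57.7, 52.9 and 60.8 FPKM closed and 60.9, 59.2 and 52.6 FPKM open. Its log2 change was -0.01 (SE 0.11), with the sign turned to 0.0076 by median scaling. Hist1h2bc stood at 46.8, 50.5 and 30.3 FPKM closed and 40.5, 40.3 and 35.4 FPKM open (log2 change 0.10, SE 0.19). Hist1h1c, the linker histone H1.2, stood at 34.7, 31.0 and 35.6 FPKM closed and 33.2, 36.1 and 31.3 FPKM open (log2 change 0.01, SE 0.11). In these genes the sides overlapped. Hist1h1e and Hist1h1d, 2 further linker histones, stood at 1.17 ± 0.25 and 0.756 ± 0.147 FPKM closed and at 1.21 ± 0.389 and 0.747 ± 0.196 FPKM open.

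Over the 15 tested rows the median log2 change was 0.10, with a range of -0.08 to 0.62 and 11 above 0. Over all rows tested the median was -0.0095, with 46.0% above 0. Of the 26 tested histone rows of all classes, 20 were above 0. The median of the replication-dependent rows was -0.04 without the open library of mouse 3, with 7 of 15 above 0. Summed over all 67 replication-dependent rows, including those under 1 FPKM, the level was 319.2, 253.9 and 270.0 FPKM closed and 294.2, 276.4 and 249.0 FPKM open. The sums averaged 281.0 ± 34.0 FPKM closed and 273.2 ± 22.8 FPKM open (SD, n = 3 each), a log2 ratio of 0.04 that was smaller than the spread. These sums came mostly from the 3 highest rows, Hist3h2ba, Hist3h2a and Hist1h2bc. Without them the sums averaged 82.6 ± 15.6 FPKM closed and 73.5 ± 1.24 FPKM open, a log2 ratio of 0.17, and the sides overlapped. The rows under 1 FPKM summed to means of 11.7 FPKM closed and 10.8 FPKM open. The summed variants averaged 2106 ± 191 FPKM closed and 2062 ± 75.5 FPKM open, a log2 ratio of 0.03.

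The lowest rows held few distinct values. In 43 histone rows with a mean above 0 and under 0.5 FPKM, the values were whole multiples of 1 step per row once each library's own unit was allowed for, within 0.12 of a step. The highest multiple was 12 and the median total over the 6 libraries was 8 steps, and 39 of the 43 rows had at most 5 steps in every library. The step was the lowest value above 0 in the row once units were allowed for, or in some rows that value divided by 2. Values far below 1 step were taken as 0. Rows with few values above 0 meet such a rule more easily. Single rows of this kind were not compared. The unit of the closed library of mouse 1 was 1.89 times that of the open library of mouse 3, so 1 step was worth more FPKM there than in any other library.

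The testis genes Hist1h1t, Hist1h2aa and Hist1h2ba were among these rows. Hist1h1t did not exceed 0.215 FPKM, Hist1h2aa 0.146 FPKM and Hist1h2ba 0.152 FPKM. The highest replication-dependent H3 rows were of the same kind: Hist1h3d, Hist1h3g and Hist1h3i had means over the 6 libraries of 0.355, 0.304 and 0.262 FPKM.

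The families differed in how much of their level came from variants. In H3, H3f3a and H3f3b held 99.8% to 99.9% of the summed FPKM in every library. In H2A the variants held 90.6% to 93.9%, of which H2afz alone held 41.6% to 49.0% of the family. In H1 they held 85.3% to 88.9%, with H1f0 at 64.9% to 69.8% of the family. The rule names no H4 variant, and the summed H4 level was 22.5 to 38.6 FPKM, against 992.6 to 1222 FPKM for H3, so H3 stood 30.2 to 49.4 times higher. Selection of poly(A) RNA leaves out transcripts without a tail, and whether it was done is unstated, so these ratios describe deposited FPKM and not the supply of histone proteins. None of the printed family shares separated the sides.

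**Figure D4:**
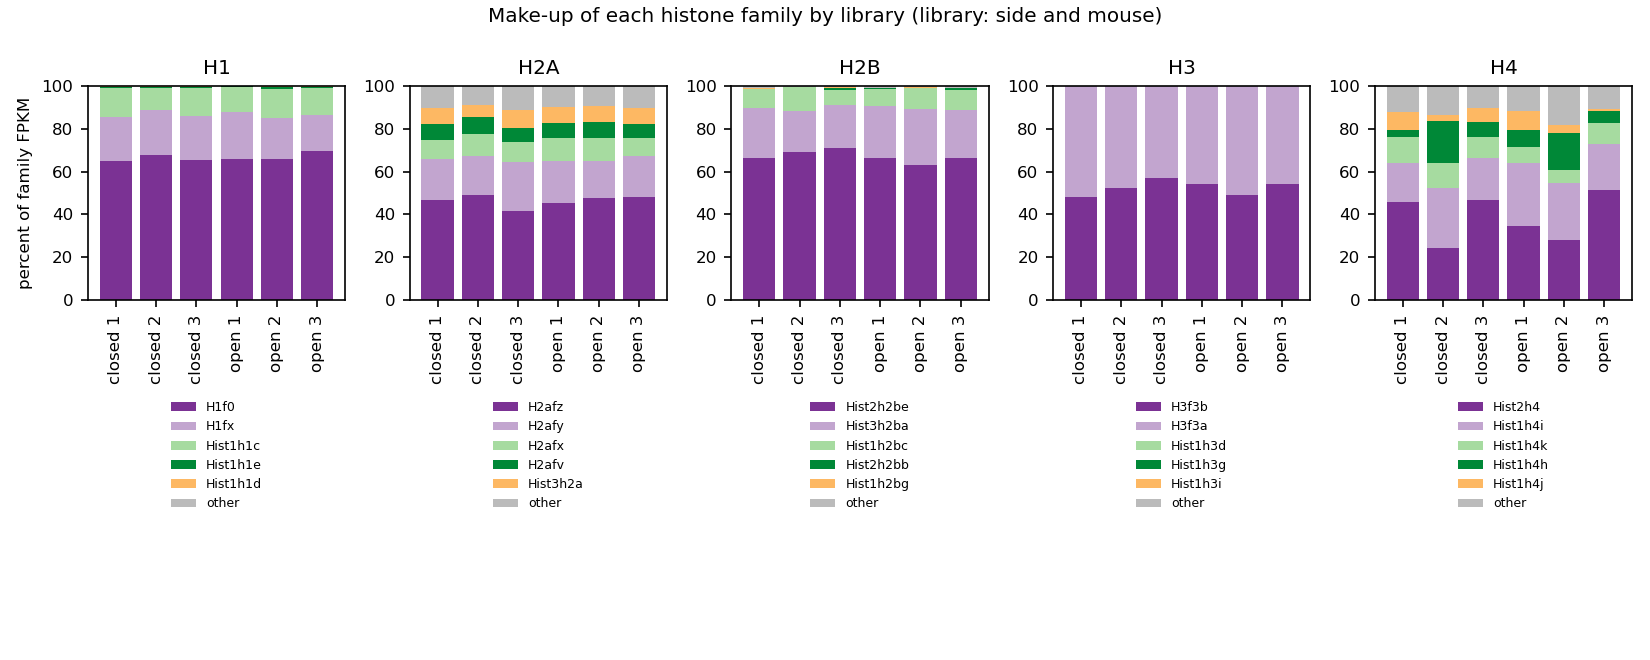
Percent of each histone family's summed FPKM held by its 5 highest genes and by the other rows, in each library (closed 1 to 3, then open 1 to 3). H3f3a and H3f3b fill the H3 bars, Hist2h2be holds 63.2% to 70.9% of the H2B bars, and the H4 bars vary most between libraries.

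Some histone rows had values that followed the mouse more than the side, a pattern noticed in values of replication-dependent genes and then tested. Hist2h2bb stood at 0.883, 0.507 and 5.16 FPKM closed and at 0.693, 0.508 and 3.84 FPKM open. Hist2h2ac stood at 0.575, 0.330 and 4.41 FPKM closed and at 0.538, 0 and 3.13 FPKM open. In both genes, mouse 3 was high on both sides and mice 1 and 2 were low on both sides. A limma F test between mice, with the side kept in the fit, gave an unadjusted p of 8.43e-05 for each and an adjusted p of 0.0733 for each, so neither passed. Over all rows 0.0811% passed between mice, and 8.65% were under 0.05 unadjusted. The other tested histone rows below this unadjusted limit in the limma test were Hist1h4h, Hist2h4, Hist3h2ba, Hist1h2ac and the variant H2afv. None of them passed after adjustment.

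Hist2h2ac, at chr3:96220361-96220880 on the minus strand, lies next to Hist2h2be, at chr3:96221119-96223738 on the plus strand (GRCm38). Hist2h2be did not share the pattern: mouse 1, not mouse 3, was highest on each side. Hist1h4h stood at 1.30, 4.35 and 2.26 FPKM closed and 2.06, 4.05 and 1.42 FPKM open, highest in mouse 2 on both sides, and Hist2h4 was lowest in mouse 2 on both sides. Neither passed between mice (limma adjusted p = 0.569 for each). Hist3h2bb-ps, a pseudogene by its name, stood at 1.55, 0.223 and 0.944 FPKM closed and 1.41, 0.140 and 1.05 FPKM open, lowest in mouse 2 on both sides, and was below the floor.

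**Figure D5:**
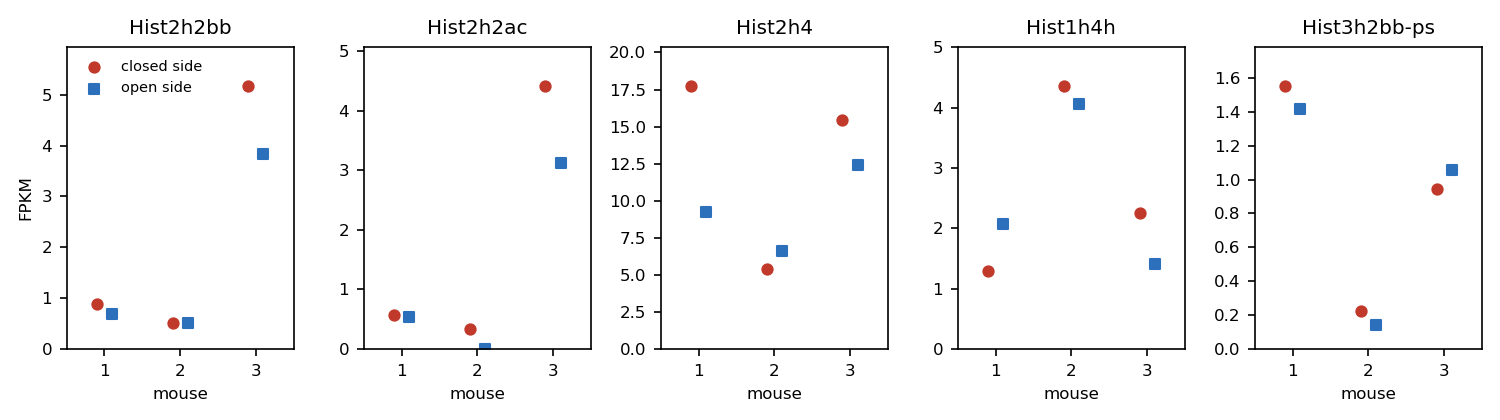
FPKM of 5 replication-dependent histone rows by mouse, with the closed side as circles and the open side as squares to their right; the vertical scales differ between panels. Hist2h2bb and Hist2h2ac are high on both sides of mouse 3, Hist1h4h is highest in mouse 2, and Hist2h4 and Hist3h2bb-ps are lowest in mouse 2.

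Promoters of replication-dependent H2A and H2B genes are printed from RefSeq (GRCm38.p6), 250 bases before to 50 after the start. These genes were taken because Hist2h2bb stood apart in mouse 3 and the Hist3 genes were the highest replication-dependent rows. Capitals mark, on either strand, the octamer ATTTGCAT, the CCAAT box CCAAT and the TATA box TATAA. The windows are Hist2h2bb at chr3:96269450-96269749, Hist3h2a at chr11:58954435-58954734 and Hist3h2ba at chr11:58948661-58948960, all on the plus strand.

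Hist2h2bb: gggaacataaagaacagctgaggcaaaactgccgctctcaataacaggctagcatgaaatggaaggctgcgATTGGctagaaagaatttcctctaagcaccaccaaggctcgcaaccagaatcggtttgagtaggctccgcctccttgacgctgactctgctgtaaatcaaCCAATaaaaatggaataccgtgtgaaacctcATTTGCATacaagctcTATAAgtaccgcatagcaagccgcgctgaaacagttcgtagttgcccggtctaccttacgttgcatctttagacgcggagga
Hist3h2a: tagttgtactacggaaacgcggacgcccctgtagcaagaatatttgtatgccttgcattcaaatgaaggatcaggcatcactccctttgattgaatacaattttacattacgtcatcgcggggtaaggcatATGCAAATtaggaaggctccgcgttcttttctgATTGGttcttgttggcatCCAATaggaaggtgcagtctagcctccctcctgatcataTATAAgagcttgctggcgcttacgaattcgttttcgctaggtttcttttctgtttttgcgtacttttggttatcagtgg
Hist3h2ba: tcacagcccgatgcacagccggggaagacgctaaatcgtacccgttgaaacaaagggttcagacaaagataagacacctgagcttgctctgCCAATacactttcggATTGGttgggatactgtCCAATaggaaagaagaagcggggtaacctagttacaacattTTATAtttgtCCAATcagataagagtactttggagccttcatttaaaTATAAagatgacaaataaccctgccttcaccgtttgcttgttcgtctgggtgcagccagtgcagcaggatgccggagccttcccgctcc

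The octamer, bound by POU factors, began 48 bases before the start in Hist2h2bb and 119 bases before it in Hist3h2a, and these letters were not in the Hist3h2ba window. Windows were matched for 76 of the 84 rows. Windows of neighbouring H2A and H2B genes on opposite strands can overlap. Examples are Hist1h2ae (chr13:23571171-23571470, minus strand) and Hist1h2bg (chr13:23571150-23571449, plus strand). The same match can then count in both families, so their counts below are not separate results. The octamer stood in 7 of 18 replication-dependent H2A windows and 7 of 17 H2B windows, in none of the 6 H1, 10 H3 and 12 H4 windows, in 1 of 14 variant windows (H3f3b) and in 1.74% of all windows. CCAAT stood in all H1, H2A, H2B and H3 windows of replication-dependent genes, in 3 of 12 H4 windows, 10 of 14 variant windows and 37.4% of all windows. TATAA stood in 5 of 6 H1 windows, 16 of 18 H2A windows, 13 of 17 H2B windows, 5 of 10 H3 windows, 11 of 12 H4 windows, 2 of 14 variant windows and 24.9% of all windows. These are matches of letters, not measured binding. They count on either strand and anywhere in the 300 bases. Some TATAA matches lay after the start, as in Hist1h2ad, and some only on the other strand, as in Hist1h2bj. The TATAA counts are therefore not counts of working TATA boxes.

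The genes that make, process and place histones were read from lists. Beside them, all rows tested had a median log2 change of -0.0095, with 46.0% above 0. Of 23 tested genes of histone transcription and 3' end processing, none passed, 18 had a log2 change above 0 and the median was 0.04. Slbp, which encodes the stem-loop binding protein, stood at 29.1 ± 3.92 FPKM closed and 28.4 ± 0.835 FPKM open. Cpsf1 and Ncbp1, a cleavage factor and a cap-binding subunit, had the lowest p of the list, with log2 changes of 0.13 (SE 0.11) and 0.11 (SE 0.11). Of 30 chaperone and exchange genes, none passed and the median was 0.03, with 18 above 0. Hira, the chaperone of H3.3, stood at 17.7 ± 0.789 FPKM closed and 16.3 ± 0.773 FPKM open (log2 change 0.12, SE 0.10), and Nap1l5, a relative of nucleosome assembly proteins, at 12.9 ± 2.45 FPKM closed and 14.6 ± 1.69 FPKM open.

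S phase and division genes, which mark dividing cells such as basal cells, showed no row past the test either. Of 32 tested, 25 were above 0, against 46.0% of all rows tested, and the median was 0.04. The summed FPKM of the 32 ranged from 481.7 to 677.6 on the closed side and from 479.0 to 586.8 on the open side. Mki67, the proliferation marker, stood at 10.7, 11.7 and 9.83 FPKM closed and at 8.70, 12.9 and 10.2 FPKM open (log2 change 0.03, SE 0.15). Pold1, a replicative polymerase subunit, and Dnmt1, the maintenance DNA methyltransferase, had log2 changes of 0.14 (SE 0.13) and 0.12 (SE 0.11).

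Markers of the other cell types of the mucosa were read in the same way, beside 46.0% above 0 over all rows tested, and none passed. The median log2 change was 0.04 for 16 immature neuron markers, with 11 above 0 and sums of 3051 to 3459 FPKM closed and 2798 to 3808 FPKM open, and 0.07 for 10 globose basal cell markers, with 9 above 0. It was -0.27 for 7 horizontal basal cell markers (0 above 0), -0.14 for 9 sustentacular cell markers (2 above 0), -0.34 for 7 glial markers (1 above 0), -0.16 for 8 macrophage markers (0 above 0) and -0.14 for 6 endothelial markers (0 above 0). It was 0.45 for 9 neutrophil markers, with sums of 445.0 to 1009 FPKM closed and 514.9 to 945.1 FPKM open, and -0.00023 for 8 red cell precursor markers. No marker of these lists was at 0 in all libraries. Their part in the histone values was not tested.

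Sequencing gave 24958172 to 39595257 reads per library on the closed side and 33945264 to 43584803 on the open side, of which 93.28% to 96.99% aligned. All histone rows together took 0.449% to 0.499% of the summed FPKM. Rows of small RNAs took 11.3% in the closed library of mouse 1 and 3.47% to 5.27% in the other 5. No histone row passed with these rows left out, but the other values were not rescaled. That fit therefore cannot show what the small RNA share did to histone values. With the libraries scaled to rows other than small RNAs, the summed log2 ratio was 0.069 for replication-dependent genes and 0.056 for variants. Of the FPKM without small RNAs, histone rows took 0.507% to 0.521% closed and 0.467% to 0.508% open. These sides overlapped.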

How the data were processed

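Whole olfactory mucosa was sequenced after total RNA extraction with the Qiagen RNeasy micro kit and TruSeq preparation, per the labels. The authors deposited FPKM per gene and library, made with Cufflinks on mouse build mm9, per the submitters' processing notes; no version or aligner is named in the sources used here. The authors also deposited, per library, a count of reads, the fraction aligned (printed as a percent), a score each for RNA integrity and coverage uniformity, and the 28S over 18S ratio. Depth per gene is unknown from FPKM, so precision rests on 3 libraries per side.

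Rows averaging 1 FPKM or more were compared on log2(FPKM + 1) with limma 3.58.1 in R 4.3.3 (eBayes with trend), closed minus open, with Benjamini-Hochberg adjustment at 0.05 over all 14788 rows tested. This scale understates changes of low genes. Sums, shares and medians carry no test. The exact permutation test used scipy 1.17.1.

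The comparison was made without the mouse as a block. The pairing comes from a deposited sheet, which assigns same-numbered closed and open libraries to 1 mouse. Their deviations from the side means correlated across genes at 0.15, 0.076 and 0.21 for mice 1, 2 and 3, against -0.17 to 0.0082 between different mice. Because side means were taken off, positive values within mice push those between mice down, so this contrast is partly built in. Nothing names a separate culture or batch. The members and the 13 gene lists were chosen with earlier results of these data known. Named genes are Hist2h2be, variants of at least 1 FPKM, the 3 highest replication-dependent genes per family, any gene past the test or without overlap, germ line genes by level, list genes of lowest p, Omp and Mki67; Slbp, Kcnmb3, Hist1h4h, Hist1h4j, Hist3h2bb-ps, H2afb3 and H2afy3 were added after values were seen. Between-mouse tests were also added then.

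Transcript ends came from GENCODE M21 (GRCm38) and promoters from RefSeq (GRCm38.p6), matched by symbol and identifier; mm9 coordinates were not used. Promoter windows were not matched for Hist2h2be, H2afx, Hist1h2bc, Hist2h4, Hist1h3a, Hist1h3f, H2afy3 and Hist3h2bb-ps.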

Additional observations from a re-analysis of the deposited data

How the results depend on the processing

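Across 17 other settings of the fit (pseudocounts, floors, scalings, robust variance, small RNA rows left out, the replicate block and each library left out), no histone row passed the test. The count of all rows past it was 7, and 4 with no floor, 4 with the replicate block and small RNA rows left out together, and 4 to 12 with 1 library left out; the cause was not tested. The replicate block gave 5 and changed no histone call. Hist2h2be kept its direction throughout, at 0.15 (without open replicate 2) to 0.32 (without open replicate 1). Its log2 ratio to Omp ranged from -0.15 to 0.038 with 1 library left out, turning to 0.0043 without closed replicate 2, 0.012 without closed replicate 3 and 0.038 without open replicate 2. With 1 library left out the median of the replication-dependent genes ranged from -0.04 to 0.19 and that of the variants from -0.02 to 0.11, and their summed log2 ratios from -0.06 to 0.11 and from -0.02 to 0.10.

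Of 30 single genes, 12 kept their direction under all settings run, and 41 of 504 values were reversed, none of a gene past the test. Quantile normalization turned H3f3a (0.062), H3f3b (0.066) and Hist1h1e (0.043), and median scaling turned H3f3a (0.017), H3f3b (0.016) and Hist3h2a (0.0076). With 1 library left out, the log2 change ranged from -0.059 to 0.087 for H1f0, -0.0061 to 0.29 for H1fx, -0.030 to 0.10 for H2afj, -0.076 to 0.18 for H2afv, -0.12 to 0.12 for H2afx, -0.12 to 0.16 for H2afz, -0.14 to 0.14 for H3f3a and -0.043 to 0.022 for H3f3b. It ranged from -0.038 to 0.066 for Hist1h1c, -0.11 to 0.12 for Hist1h1e, -0.073 to 0.043 for Hist3h2a, -0.17 to 0.86 for Hist2h2ac, -0.11 to 0.40 for Hist1h2ac, -0.23 to 0.025 for Hist3h2ba, -0.034 to 0.33 for Hist1h2bc, -0.46 to 0.70 for Hist2h2bb, -0.078 to 0.18 for Hist1h4i and -0.088 to 0.17 for Mki67. Without a change of sign, it ranged from 0.017 to 0.79 for Hist2h4, 0.090 to 0.23 for H2afy, 0.031 to 0.17 for H2afy2 and 0.11 to 0.44 for Omp. Hist1h4k stayed at 0.43 to 0.83 under all settings run.

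FPKM give no counting error, the 95% intervals of the tested histone rows reach from -1.19 to 1.72, copies of near-identical sequence can share reads, and overlapping genes cannot be told apart where strand is unknown.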
